A study of Sus scrofa with 48 samples.

Results

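Lysosomal enzymes and lysosomal membrane proteins were examined in the liver of growing pigs, as 37 genes listed by name. The list is of gene names and its rule uses no measured value, but it was chosen with earlier results of these data known. Each gene was represented by its brightest probe on a custom porcine array. Of the 37 genes, 33 had a probe (87 probes) and 32 had a probe that was tested (86 probes), of 45236 probes tested in all and 10593 named genes with a tested probe. GLA, GLB1, GM2A and CTSL had no probe under their present symbol, and the single probe of ASAH1, acid ceramidase, was not well above background on enough arrays to be tested. The other 32 genes are 8 cysteine proteases, 3 other proteases, 7 glycosidases, 4 sulfatases, 5 proteins of lipid breakdown and lipid transfer, and 5 membrane proteins.

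The livers came from 48 Large White barrows, 24 from a low RFI line and 24 from a high RFI line. Residual feed intake (RFI) is the feed a pig eats beyond what its growth and maintenance predict, and the lines had been selected in opposite directions over 8 generations. From 74 d of age, 12 pigs of each line received a diet rich in fat and fiber (HF) and 12 a diet low in both (LF). All pigs were slaughtered after about 58 d on the diets, 2 h after a last meal. Liver is a mixture of cells, so fewer cells of a type and less RNA per cell cannot be told apart, and the lines differ in all that 8 generations of selection and drift have separated.

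Lysosomes are acid compartments in which proteins, glycans and lipids brought in by endocytosis or autophagy are broken down. Most of their soluble enzymes receive a mannose 6-phosphate tag in the Golgi, are carried to the lysosome by receptors that bind the tag, and work at the low pH kept by a proton pump. In liver, hepatocytes use them to turn over their own organelles and stored lipid, and the resident macrophages, the Kupffer cells, are rich in them.

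All 6 hepatocyte markers (ALB, TTR, SERPINA1, APOA2, TF and HNF4A) were well above background on all 48 arrays, as the tissue label requires. The arrays lay on 6 slides of 8 and were scanned on 2 days of 24 arrays, each slide with 2 and each day with 6 arrays of every group. The median intensity of an array over the tested probes ranged from 141 to 336, and 65.8 to 77.2% of probes were well above background. Correlation between 2 arrays of a group was at least 0.975. Values are log2 intensities minus the median of the array, so that a log2 difference of 1 doubles the signal, and levels of different probes are not compared. A gene was called when limma gave P under 0.01 and a fold change (FC) over 1.1, and P-BH is the P adjusted by the Benjamini-Hochberg method over all 45236 tested probes.

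The probes are 60 bases long, and 20 of the 32 genes had more than 1 tested probe. Their sequences were compared within each gene, because 2 probes can read the same stretch, opposite strands or different stretches of a transcript. The first 30 bases of the 2 MCOLN1 probes are shown because both probes hold the same 60 bases, with shared bases in capitals:
MCOLN1, brightest probe: TTAGCCCCCGGACTGCGGAGACCCATGCTT
MCOLN1, other probe: TTAGCCCCCGGACTGCGGAGACCCATGCTT
For CTSZ and CTSD, the brightest probe and another probe named for the same gene are reverse complements of each other, over 39 and 58 bases. Stretches of 30 bases in capitals, each the reverse complement of its partner, show this:
CTSZ, brightest probe, bases 1 to 30: AGTTTAACCAGTGTGGAACGTGCACTGAGT
CTSZ, opposite strand, bases 10 to 39: ACTCAGTGCACGTTCCACACTGGTTAAACT
CTSD, brightest probe, bases 1 to 30: TTCTGTTCCGTGGTGTCCCTCCCTGGTTCC
CTSD, opposite strand, bases 29 to 58: GGAACCAGGGAGGGACACCACGGAACAGAA
The probes of NAGLU and of CTSC read different stretches, with no run of 12 or more bases in common on either strand. Their first 30 bases are shown because the line results turn on them:
NAGLU, brightest probe: gccttcctccctcatctcaaatttgggatc
NAGLU, other probe: agggtgggagtggcttttagcagcagccgc
CTSC, brightest probe: accagcacgtgattaagtgagatttttgtg
CTSC, other probe: catgagggcactgatcaattactgaccatt

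The line comparison asks which lysosomal genes differ in liver between pigs selected for low and for high RFI. Of the 32 genes tested, NAGLU was over-expressed in low RFI pigs, CTSC and MCOLN1 were under-expressed there, and 29 were not called. Over all tested probes, 3.42% were called higher and 3.49% called lower in the low RFI line, and 32 genes at those shares would hold about 1 call in each direction. At a P-BH of 5%, NAGLU and CTSC passed, against 3.93% of all probes. The median log2 fold change over the 32 genes was -0.01, and it was 0.01 over all tested probes. Positive values were found for 13 of the 32 genes and for 23727 of the 45236 tested probes.

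**Figure D1:**
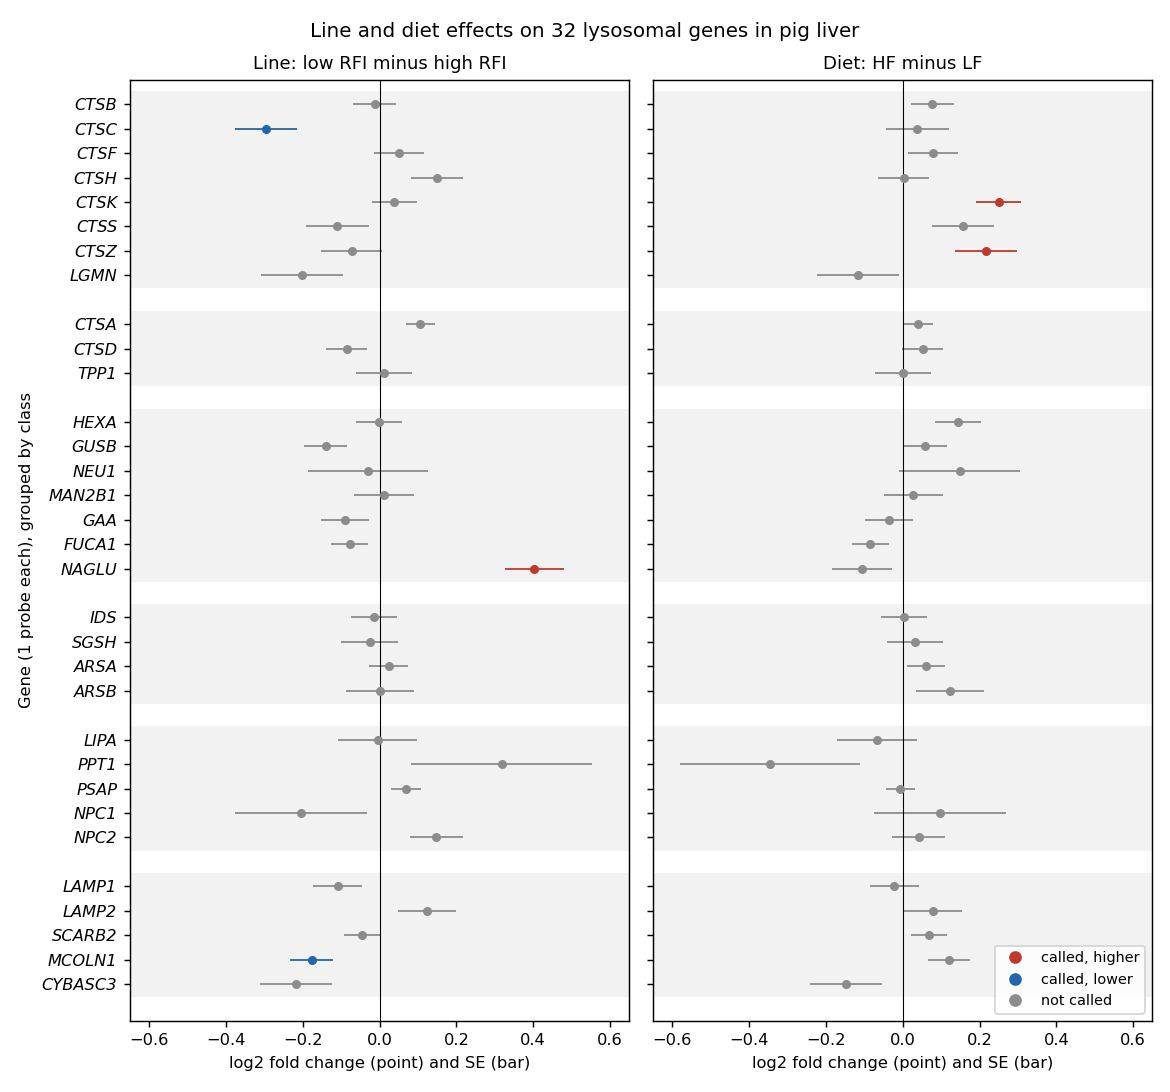
Log2 fold change (point) and standard error (bar) of the brightest probe of 32 lysosomal genes for line (left, low RFI minus high RFI) and diet (right, HF minus LF), in grey bands by class in the order of the text. NAGLU (0.40), CTSC (-0.30) and MCOLN1 (-0.18) are coloured for line, CTSK (0.25) and CTSZ (0.22) for diet, and the wide bars of PPT1 belong to a dim probe.

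NAGLU encodes alpha-N-acetylglucosaminidase, an exoenzyme of heparan sulfate breakdown whose loss causes a mucopolysaccharidosis. In pigs from the low RFI line its lowest value was 4.41, its median 4.58 and its highest 4.79. In pigs from the high RFI line the lowest was 2.72, the median 4.22 and the highest 4.69. Every one of the 24 low RFI pigs lay above the high RFI median, and 18 of 24 high RFI pigs lay below the lowest low RFI pig, while the 6 others overlapped. Low RFI pigs had a mean of 4.58 ± 0.11 (SD, n = 24), compared with 4.18 ± 0.37 (SD, n = 24) for high RFI pigs (log2 fold change 0.40, SE 0.08, FC = 1.32, P = 4.49e-06, P-BH = 0.000694). The difference was 0.50 (SE 0.11, P = 3.85e-05) with the HF diet and 0.31 (SE 0.11, P = 0.0076) with the LF diet, and the difference between them did not pass the test (0.19, SE 0.16, P = 0.221).

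1 pig stood apart for NAGLU, replicate 10 of the high RFI line fed the HF diet, at 2.72, with the next lowest high RFI pig at 3.79. Without it the SD of the high RFI line was 0.21 and the line difference was 0.34 (P = 2.32e-08). The other NAGLU probe was dim, below the array median in every pig, although well above background on all 48 arrays. It gave a line difference of 0.04 (SE 0.09, P = 0.627), with low RFI pigs between -3.12 and -2.25 and high RFI pigs between -3.63 and -2.16. Over the 48 pigs, after the group means were taken out, the 2 NAGLU probes correlated at r = 0.18. So the line difference of NAGLU was measured by the brighter of its 2 probes only, and the strand or exon that each probe reads was not determined here.

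CTSC encodes cathepsin C, the dipeptidyl peptidase that activates the serine proteases of granulocytes and cytotoxic lymphocytes. Low RFI pigs ranged from 4.10 to 5.28 with a median of 4.69, and high RFI pigs from 4.42 to 5.45 with a median of 4.88. The ranges overlapped widely, and 19 of the 24 low RFI pigs lay below the high RFI median. CTSC was under-expressed in the low RFI line (log2 fold change -0.30, SE 0.08, FC = 1.23, P = 0.000723, P-BH = 0.0256). The other CTSC probe, which shares no stretch with it, was also called (log2 fold change -0.33, SE 0.09, P = 0.000769, P-BH = 0.0265). Within the 24 arrays of a scan day the difference was -0.36 (P = 0.00303) on day 1 and -0.23 (P = 0.0753) on day 2.

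MCOLN1 encodes mucolipin 1, a cation channel that releases calcium from lysosomes. Low RFI pigs ranged from 2.92 to 3.61 with a median of 3.33, and high RFI pigs from 2.90 to 3.76 with a median of 3.54. Both ranges overlapped almost whole, although 21 of the 24 low RFI pigs lay below the high RFI median. The log2 fold change was -0.18 (SE 0.05, FC = 1.13, P = 0.00227), and the adjusted value missed 5% (P-BH = 0.0552). The other probe gave -0.22 (P = 0.00102, P-BH = 0.0321), but it is the same sequence spotted again and adds no second stretch of the transcript. Within scan days the difference was -0.20 (P = 0.0323) and -0.16 (P = 0.0424), which did not pass P under 0.01.

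**Figure D2:**
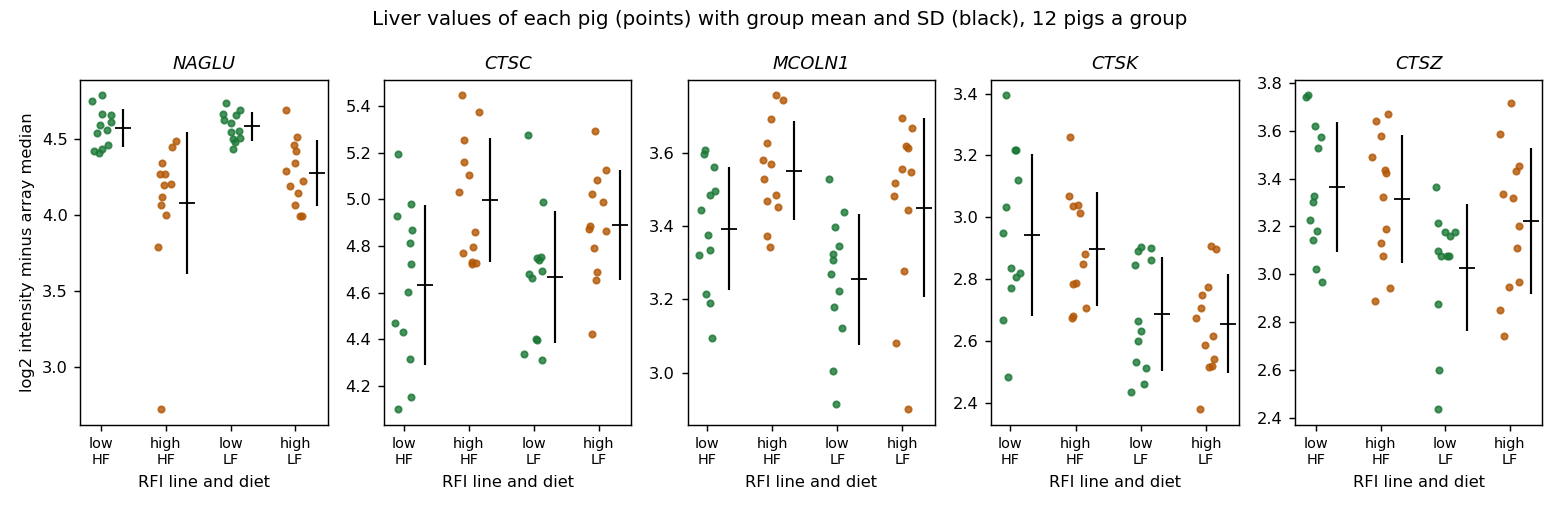
Log2 intensity minus array median of each pig (points, green for the low and orange for the high RFI line) in the 4 groups of 12, with group mean and SD in black, for the 5 called genes, each on its own axis. For NAGLU all 24 low RFI pigs lie at 4.41 or above, 18 of 24 high RFI pigs lie below them and 1 lies at 2.72, and for all 5 genes the groups overlap.

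Among the 29 genes that were not called for line, the log2 fold change ran from -0.22 (CYBASC3) to 0.15 (CTSH), apart from PPT1. PPT1, palmitoyl-protein thioesterase, was well above background on 21 of 48 arrays and gave 0.32 with an SE of 0.23. The other 31 genes were well above background on every array, although MAN2B1, CYBASC3 and TPP1 lay below the array median in every pig. Unadjusted P was under 0.05 for 8 of the 32 genes and for 14.7% of all tested probes. Beside the 3 called genes these were CTSA, CTSH, GUSB, NPC2 and CYBASC3.

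By class, the line comparison called 1 of 8 cysteine proteases, 0 of 3 other proteases, 1 of 7 glycosidases, 0 of 4 sulfatases, 0 of 5 lipid proteins and 1 of 5 membrane proteins. The sulfatases lay closest to 0. IDS, SGSH, ARSA and ARSB, which take sulfate groups from glycosaminoglycans and sulfatides, had log2 fold changes of -0.01, -0.03, 0.02 and 0.00. LIPA, the acid lipase that frees cholesterol and fatty acids from lipoprotein esters, gave -0.01 (SE 0.10). CTSB, cathepsin B, a cysteine protease abundant in liver, gave -0.01 (SE 0.06).

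The pair of cholesterol carriers that hand sterols from the lumen to the membrane did not pass the test. NPC2, the soluble carrier, gave 0.15 (SE 0.07, P = 0.036), with its 3 probes between 0.13 and 0.15. NPC1, the membrane carrier, gave -0.20 (SE 0.17, P = 0.24), and its within-group SD of 0.61 was among the largest of the 32 genes. The median within-group SD was 0.23 over the 32 genes and 0.28 over all tested probes.

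CTSA encodes cathepsin A, or protective protein, which keeps beta-galactosidase and neuraminidase stable. Its brightest probe had a small P with a fold change below the limit (log2 fold change 0.11, SE 0.04, FC = 1.08, P = 0.00774, P-BH = 0.121). A dimmer probe was called, with low RFI pigs from -1.40 to -0.26, median -0.82, and high RFI pigs from -1.55 to -0.66, median -1.22. At that probe the log2 fold change was 0.33 (SE 0.07, FC = 1.26, P = 1.98e-05, P-BH = 0.00187). The third probe, well above background on 32 arrays, gave -0.17 (SE 0.13). The 3 CTSA probes share no stretch of sequence, and the pair that was positive correlated at r = 0.39 over the pigs.

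The diet comparison asks what the HF diet changed in the same genes. CTSK and CTSZ were over-expressed with the HF diet, no gene was under-expressed, and 30 were not called. Over all tested probes 2.07% were called higher and 2.54% lower with the HF diet, and 0.455% passed a P-BH of 5%, as CTSK did. The median log2 fold change over the 32 genes was 0.04 and over all tested probes -0.01. Of the 32 genes 23 had positive values, as did 20286 of the 45236 tested probes. Among the 8 cysteine proteases 7 were positive with a median of 0.08, and in the lipid proteins 2 of 5 were positive with a median of -0.01.

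CTSK encodes cathepsin K, a collagen-degrading protease best known from osteoclasts and also made by fibroblasts. Pigs fed the HF diet ranged from 2.48 to 3.39 with a median of 2.87, and pigs fed the LF diet from 2.38 to 2.91 with a median of 2.65. The ranges overlapped, and 23 of the 24 HF pigs lay above the LF median. The log2 fold change was 0.25 (SE 0.06, FC = 1.19, P = 0.000108, P-BH = 0.04). It was 0.26 (SE 0.08) in the low and 0.24 (SE 0.08) in the high RFI line. Of its 6 probes 5 were called, with log2 fold changes from 0.23 to 0.27, and the sixth, well above background on 23 arrays, gave 0.46 (P = 0.0189). The 6 probes have different sequences, although 1 pair shares a run of 28 bases, so CTSK is the called gene with the most probes behind it.

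CTSZ encodes cathepsin Z, a carboxypeptidase of immune cells among others. HF pigs ranged from 2.89 to 3.75 with a median of 3.33, and LF pigs from 2.44 to 3.72 with a median of 3.14. The ranges overlapped over most of their width, and 18 of 24 HF pigs lay above the LF median. The log2 fold change was 0.22 (SE 0.08, FC = 1.16, P = 0.00922), with a P-BH of 0.194. In the low RFI line it was 0.34 (SE 0.11) and in the high RFI line 0.09 (SE 0.11), and the interaction did not pass the test (0.24, SE 0.16, P = 0.133). The opposite-strand probe was well above background on 44 arrays and gave 0.18 (P = 0.17).

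LAMP2, a heavily glycosylated protein of the lysosomal membrane with a part in autophagy, was not called at its brightest probe (log2 fold change 0.08, SE 0.08, P = 0.298). Of its 8 probes, all with different sequences, all had positive diet values from 0.06 to 0.19, and 2 were called. At the first of these HF pigs ranged from 3.45 to 3.91 and LF pigs from 2.97 to 3.68, with medians of 3.62 and 3.53 (log2 fold change 0.19, SE 0.05, P = 0.000388, P-BH = 0.0602). At the second the log2 fold change was 0.14 (SE 0.05, P = 0.00507, P-BH = 0.154). The probe read therefore sets whether LAMP2 passes.

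**Figure D3:**
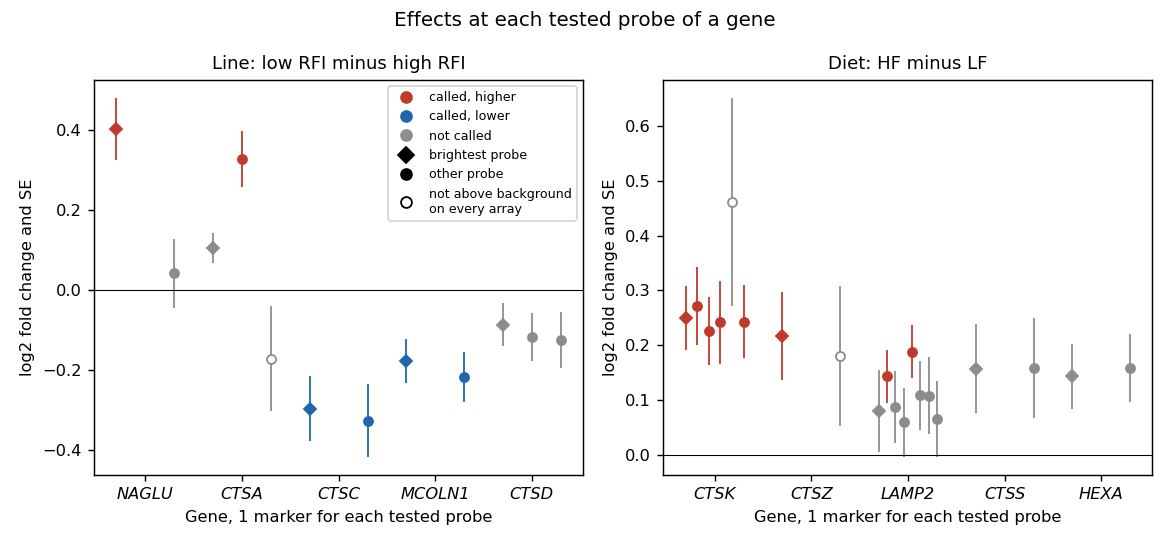
Log2 fold change and standard error at every tested probe of 10 genes, for line (left) and diet (right); diamonds are the brightest probe, open markers probes not well above background on all 48 arrays. For line the NAGLU probes lie at 0.40 and 0.04 and both probes of CTSC and of MCOLN1 below 0, and for diet all CTSK probes lie above 0.

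The diet values of the 30 genes that were not called ran from -0.15 (CYBASC3) to 0.16 (CTSS), apart from -0.35 (SE 0.23) for the dim PPT1. HEXA, the alpha subunit of beta-hexosaminidase, gave 0.14 (SE 0.06, P = 0.0212). It was called with normexp background correction, with the median signal and with the deposited log2 values (0.17, 0.17 and 0.16). The deposited values are the log2 median signal shifted by a constant for each array, so they are not a separate measurement. MCOLN1 gave 0.12 (SE 0.05, P = 0.0336). These were the only 2 genes beside the called ones with an unadjusted diet P under 0.05, which 14.4% of all tested probes had. GAA, the glycogen-degrading acid glucosidase, gave -0.04 (SE 0.06), and LIPA gave -0.07 (SE 0.10).

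Cathepsin L is represented on the array by 10 probes under the older name CTSL1, whose accession the reference now assigns to CTSV, so by name CTSL had no probe, and these 10 were not counted among the 87 probes. All 10 had positive diet values, from 0.05 to 0.18, and 3 were called, the smallest P being 0.00299 (P-BH = 0.13). Over all tested probes 2.07% were called higher with the HF diet. The 10 probes stand for 1 gene on the same arrays, so they are not separate observations, and their overlap was not examined. None was called for line, with values from -0.02 to 0.07.

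The interaction asks whether the line difference depends on the diet. None of the 32 genes was called for interaction by limma, against 0.376% of all tested probes, 0 had an unadjusted P under 0.05 (2.37% of all tested probes), and the ANOVA without moderated variances called 0. The difference of the line effects ran from -0.40 (NPC1, SE 0.34) to 0.25 (LIPA, SE 0.21), and the smallest P, 0.133, belonged to CTSZ. With standard errors of this size, differences of the order of the line effects themselves were not detectable for the noisier genes.

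Probes of the same gene gave a measure of how well a single probe stands for it. Of the 54 further probes, 41 had the sign of the brightest probe for line and 44 for diet. After the group means were taken out, the 3 pairs of identical sequence (in CTSB, HEXA and MCOLN1) correlated at r = 0.90 to 0.98 over the 48 pigs. The 9 pairs that shared a run on the same strand had a median r of 0.93, and the 137 pairs without a shared run a median of 0.57 with a range from -0.54 to 0.98. The opposite-strand pairs gave r = 0.33 for CTSD and 0.60 for CTSZ. These values share arrays and are given as a description.

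The lysosomal genes varied together only weakly from pig to pig. Over the 496 pairs of the 32 genes, the mean r within groups was 0.07, against 0.01 over all pairs of tested probes, where centring on the array median holds the mean near 0. Only 7 pairs exceeded 0.5, led by CTSK with MCOLN1 (r = 0.62), ARSA with PSAP (r = 0.62) and GUSB with NPC2 (r = 0.61), and 1 pair lay below -0.5, CTSA with NPC1 (r = -0.66). PSAP is the precursor of the saposins, the activators that ARSA and other enzymes need to reach their lipids. CTSD, the main aspartic protease, varied with PSAP (r = 0.57) and with HEXA (r = 0.52). These correlations rest on 48 pigs whose arrays share their noise.

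Kupffer cells are rich in lysosomes, so a macrophage marker level was computed per pig as the mean log2 value of 9 markers (CD163, CSF1R, VSIG4, C1QA, C1QB, C1QC, MSR1, AIF1 and CD5L), each well above background on all 48 arrays. It ranged from 3.95 to 4.80 in low RFI pigs fed HF, from 3.64 to 4.46 in low RFI pigs fed LF, from 3.89 to 4.73 in high RFI pigs fed HF and from 3.97 to 4.83 in high RFI pigs fed LF. None of the 10 macrophage genes tested, CD68 included, was called for line or diet by limma, with a median log2 fold change of -0.18 for line and 0.12 for diet. For line 9 of the 10 were negative and 4 (CSF1R, VSIG4, C1QA and AIF1, all negative) had an unadjusted P under 0.05, and for diet 2 had one. Of the 32 lysosomal genes 17 had a positive slope on that level within groups, and 2 passed a P-BH of 5%, against 3.24% of other probes with a positive and 2.63% with a negative slope. CTSS, cathepsin S, which trims the invariant chain in antigen-presenting cells, rose by 0.96 per log2 unit of the marker level (SE 0.10, P-BH = 2.99e-09). CTSD rose by 0.36 (SE 0.10, P-BH = 0.0239).

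The slopes of the genes called for line or diet did not pass over all 48 pigs. CTSC had a slope of 0.42 (SE 0.16, P-BH = 0.102), which was 0.58 (SE 0.18) and passed (P-BH = 0.0497) without the 2 pigs farthest from the median marker level. The slope was -0.29 (SE 0.16, P-BH = 0.282) for NAGLU, -0.04 for MCOLN1, -0.04 for CTSK and -0.01 for CTSZ. With the marker level in the model, a choice made after seeing the data, the line difference was -0.24 for CTSC (P = 0.00396), 0.37 for NAGLU (P = 2.66e-05) and -0.18 for MCOLN1 (P = 0.00261), and GUSB was called as well (-0.18, P = 0.00222). The diet difference was then 0.25 for CTSK (P = 0.00014) and 0.22 for CTSZ (P = 0.0113).

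**Figure D4:**
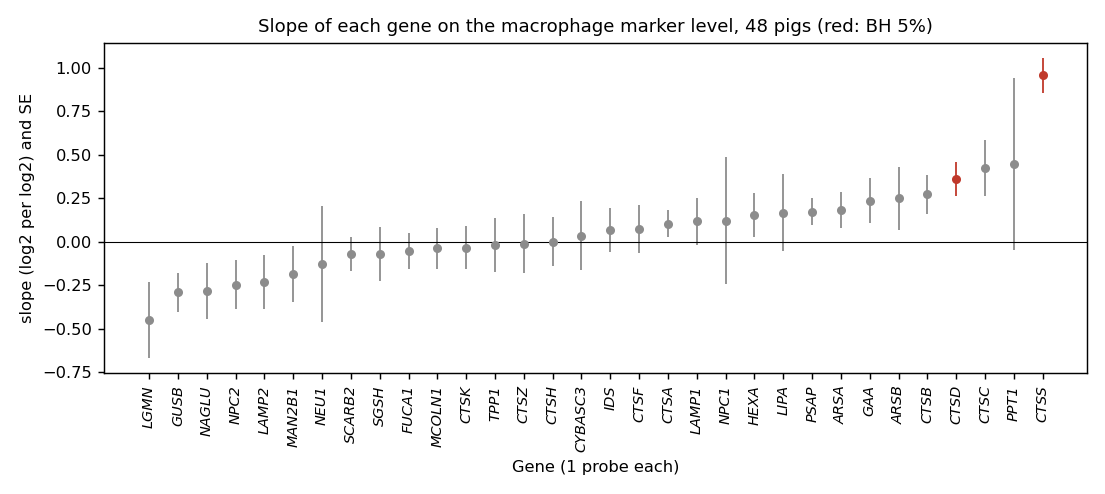
Slope (point) and standard error (bar) of 32 lysosomal genes on the macrophage marker level of each pig, in log2 per log2 and ordered by size, with the 4 groups in the model. CTSS (0.96) and CTSD (0.36), in red, passed a P-BH of 5%.

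Markers of other cell types stand beside the called genes, and their part in the results was not tested. Over all tested probes 3.49% were called lower in the low RFI line and 2.07% higher with the HF diet. For line, CD247 of 8 T and NK cell markers, CXCR2 of 4 neutrophil markers and KRT7 of 5 cholangiocyte markers were called lower in the low RFI line, at -0.28, -0.20 and -0.35. In each list the called marker was the only 1 with an unadjusted P under 0.05, and 0 passed a P-BH of 5%. The list medians for line were -0.08, -0.11 and -0.21, with 3, 0 and 1 positive values. For diet, CD247 was called higher with the HF diet at 0.40. None of 6 stellate cell markers was called by limma for diet (2 at an unadjusted P under 0.05, median 0.11), and none of 6 hepatocyte markers (2 at an unadjusted P under 0.05, median -0.08). The 5 cholangiocyte markers all had positive diet values with a median of 0.31, 2 at an unadjusted P under 0.05 and 0 calls by limma.

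Other lysosomal genes gave the context of the 32. The shares called over all tested probes, for these lists and those below, were 3.42% higher and 3.49% lower for line. For diet they were 2.07% higher and 2.54% lower. Of 18 further hydrolases, 2 were over- and 2 under-expressed in the low RFI line. The over-expressed genes were ACP5, tartrate-resistant acid phosphatase (0.38, SE 0.12, P-BH = 0.0798), and HGSNAT, the acetyltransferase that acts before NAGLU in heparan sulfate breakdown (0.23, SE 0.08, P-BH = 0.0847). The under-expressed genes were ARSG, an arylsulfatase (-0.99, SE 0.16), and PRCP, a prolylcarboxypeptidase (-0.46, SE 0.06). For diet 1 hydrolase was called, GGH, gamma-glutamyl hydrolase, higher with the HF diet (0.35, SE 0.12), but it did not pass a P-BH of 5%.

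Of 18 further lysosomal membrane proteins, CD63, a tetraspanin, was called, lower in the low RFI line (-0.15, SE 0.05). Of 15 subunits of the vacuolar ATPase, the proton pump, ATP6V0A1 was higher (0.15, SE 0.05) and ATP6V1G1 lower (-0.17, SE 0.05) in the low RFI line. Only 1 of the 15 subunits passed a P-BH of 5% for line. None of 15 genes of enzyme tagging and sorting, 6 cathepsin inhibitors or 11 regulators of lysosomal genes was called for line or diet by limma, with 3, 0 and 1 at an unadjusted P under 0.05 for line and 1, 0 and 2 for diet. Of 16 autophagy genes, BECN1, SQSTM1 and PIK3C3 were under-expressed in the low RFI line. BECN1, a subunit of the complex that starts autophagosomes (-0.37, SE 0.08, P-BH = 0.00145), alone passed a P-BH of 5% for line. SQSTM1, a cargo receptor (-0.20, SE 0.06), and PIK3C3, the lipid kinase of the BECN1 complex (-0.14, SE 0.05), did not pass it. ULK1, a starter kinase, was over-expressed with the HF diet (0.43, SE 0.14) but did not pass a P-BH of 5%.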

How the data were processed

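For each array the authors deposited the scanner's spot intensities, among them a background-subtracted intensity, without normalization between arrays, and a table of log2 values centred on each sample's median. Control spots were left out, 483 outlier spots were set to missing and spots of a probe were averaged. Log2 background-subtracted intensities were centred on the array median over the 45236 probes well above background on at least 12 of 48 arrays. Line, diet and their interaction were fitted to every tested probe with limma 3.58.1 in R 4.3.3, after the ANOVA of the methods. The script was tested on simulated data.

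Probes were matched by gene name or, for ARSA and LAMP1, by accession through the Sscrofa11.1 RefSeq table. The array names no genome build, so no coordinates are given. All 37 genes are accounted for, with full values where the brightest probe was called. CTSA and LAMP2 are given because another probe was, and at most 3 called genes per further list and direction are named. Macrophage markers with P under 0.05 were named after their values were seen. Some genes of the further lists are not reported here. Members and lists were chosen with earlier results of these data known. Each pig is 1 replicate, and the number of arrays limits the precision. Alternatives were another centring, normalization, background, filter, model, batch block or probe summary, the deposited log2 values, and single scan days.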

Additional observations from a re-analysis of the deposited data

How the results depend on the processing

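All directions of the 5 called genes were kept in the 17 alternatives run for each. Groups were of equal size on every slide and scan day. The ANOVA without moderated variances, the slide and scan-day blocks and the model without interaction could therefore change P but not the log2 fold changes. The median signal and the deposited log2 values differ only by a constant for each array, apart from the probes and spots kept. NAGLU (0.22 to 0.52) and CTSK (0.23 to 0.29) passed in all 17 alternatives, CTSC (-0.36 to -0.23) in 16, MCOLN1 (-0.20 to -0.16) in 14 and CTSZ (0.20 to 0.23) in 12. The number of genes lower in the low RFI line was 2, and it was 1 with normexp background correction, 1 on scan day 1 and 0 on scan day 2, each day with 24 of the 48 arrays, and 3 with the macrophage marker level as a covariate, where GUSB was added. The number higher in the low RFI line was 1, and 2 on scan day 1, where CTSA was added. The number higher with the HF diet was 2. It was 3, with HEXA added, with normexp, with the median signal and with the deposited log2 values, and 1 on scan day 1, on scan day 2, in the model without interaction, when all tested probes of a gene were averaged and with the macrophage marker level as a covariate, CTSZ being the gene lost in each (P = 0.0892, 0.0591, 0.0101, 0.0397 and 0.0113); the cause was not tested. The number of slopes on the macrophage marker level that were positive at a P-BH of 5% was 2. It was 1 on each scan day and 3, with CTSC added, without the 2 pigs farthest from the median marker level. Leaving out replicate 10 of the high RFI line fed HF, chosen after seeing the data, left the counts at 1 and 2 for line and 2 for diet. No paired analysis was possible because the labels give every sample the same replicate number; the numbers used here are names in accession order, and slide and scan day were run as blocks. Results for PPT1 are limited by signal near background.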
